A study of Rattus norvegicus with 12 samples.

Results

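A set of 47 genes of the sarcomere and of striated muscle was followed through control, hypoxia/reoxygenation (H/R) and LITAF overexpression in H9C2 cells, an established rat myoblast line from heart. The members were chosen by name, as myosins, troponins, tropomyosins, sarcomeric actins, Z-disc and M-band proteins and muscle chaperones. Of the 47 listed genes, 45 were found among the 16002 gene IDs of the count table, and the expression of Myl1 and Myl3 was not analysed here. RNA was sequenced from 3 groups of 4 libraries, all from wild type cells and all in 1 batch by the labels. Control cells stayed at normal oxygen and had no lentivirus. Cells of the H/R group carried an empty lentiviral vector and spent 8 h at 1% oxygen followed by 2 h of reoxygenation. Cells of the LITAF group carried a vector that overexpresses LITAF, a membrane protein of late endosomes and lysosomes, and went through the same hypoxia and reoxygenation. The H/R and LITAF groups therefore differ in LITAF, while a comparison with control changes vector and oxygen together, and those cannot be told apart. The labels speak of biological replicates without naming separate cultures, and the spread that the p-values rest on may be technical.

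The sarcomere is the contractile unit of striated muscle. Thick filaments of myosin slide along thin filaments of actin, tropomyosin and the calcium sensor troponin, titin and nebulin set the filaments in register, and Z-discs and M-bands anchor them. Myoblasts express few of these genes while they divide and switch them on as they differentiate, with embryonic and slow isoforms often ahead of adult ones, under the myogenic factors, MEF2 proteins and serum response factor. H9C2 cells are known to express genes of both cardiac and skeletal muscle.

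Proximal promoters of 4 of these genes are printed to show the sequence that lies before genes whose RNA was higher in the LITAF group. Each is the strand of the gene, 5′ to 3′, and covers the 160 bases before its start site in RefSeq, build GRCr8. Capitals mark the motifs searched on both strands: TATAAA, the CArG box bound by serum response factor, the MEF2 box, and the E-box CAGCTG, itself 1 form of the broader motif CANNTG, which is not marked. The 4 are a choice from 8 risen members with a window, and each holds a marked motif. The windows of Actc1 and Tnni1, which rose most, held no marked motif and are not printed. Another start of Xirp1, also not printed, held CAGCTG and no MEF2 box. The windows are Acta1 at chr19:68784195-68784354 on the minus strand, Myl11 at chr1:191260129-191260288 on the plus strand, Myh3 at chr10:52269025-52269184 on the plus strand and 1 start of Xirp1 at chr8:128635004-128635163 on the minus strand.
Acta1: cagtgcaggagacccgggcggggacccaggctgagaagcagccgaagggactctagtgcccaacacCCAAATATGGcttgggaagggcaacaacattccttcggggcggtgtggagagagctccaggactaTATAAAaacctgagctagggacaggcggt
Myl11: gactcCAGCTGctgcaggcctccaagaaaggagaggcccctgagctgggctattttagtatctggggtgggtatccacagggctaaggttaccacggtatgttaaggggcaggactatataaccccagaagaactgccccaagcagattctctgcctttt
Myh3: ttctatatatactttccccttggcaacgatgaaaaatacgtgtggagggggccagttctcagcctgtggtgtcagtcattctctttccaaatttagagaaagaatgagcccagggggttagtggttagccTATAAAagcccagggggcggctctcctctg
Xirp1: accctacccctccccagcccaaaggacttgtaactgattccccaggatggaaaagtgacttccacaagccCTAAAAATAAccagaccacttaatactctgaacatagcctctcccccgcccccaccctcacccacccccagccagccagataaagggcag

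In Acta1 the CArG box lies 94 to 85 bases before the start and TATAAA 29 to 24 bases before it. TATAAA of Myh3 lies 30 to 25 bases before the start, and CAGCTG of Myl11 155 to 150 bases before it. Windows of 250 bases were held for 38 of the 47 members, 45 windows in all because some genes have several starts that can overlap. Of these 38 members, 36 were found in the count table. The others are Myl1 and Myl3, whose expression was not analysed. Their windows enter the shares below, with a MEF2 box in Myl1 and a CArG box in Myl3. A MEF2 box was found in 8 of the 45 member windows (17.8%), against 1.68% of all 33469 windows of that length. These 8 windows belong to 7 genes, because 2 overlapping windows of Xirp1 hold the same site. CAGCTG was found in 15 of 45 (33.3%) against 12.0%, and the CArG box in 4 of 45 (8.89%) against 1.497%. TATAAA was found in 11 of 45 (24.4%) against 12.9%. The counts were, for CATTCC, the core bound by TEAD factors, 8 of 45 (17.8%) against 12.1%, and for the broader CANNTG 34 of 45 (75.6%) against 65.5%. Windows of 8 members that rose with LITAF, 11 in all, held CAGCTG in 4 (36.4%) and a MEF2 box in 2 (18.2%). Both of the latter are overlapping windows of Xirp1 with the same site, so 1 of the 8 genes held a MEF2 box. In 20 windows of members tested and not called with LITAF, CAGCTG was found in 5 (25.0%) and a MEF2 box in 3 (15.0%). A match is a run of letters, not a measured binding site.

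Total counts were 19.2 to 20.7 M in control, 16.9 to 18.1 M in H/R and 17.2 to 18.4 M in LITAF libraries. Litaf itself checked the labels: its level, in counts per M reads scaled by TMM (CPM), was 473 ± 17.9 (SD, n = 4) in control, 585 ± 30.0 in H/R and 2338 ± 326 in LITAF libraries. Of 10 cardiomyocyte markers, 6 had group means under 1 CPM in every group, among them Nppa, Nppb, Tnni3 and Myh6, while Gata4, Hand2, Nkx2-5 and Pln were above it. The 5 endothelial markers were under 1 CPM in every group. Summed collagens and other fibroblast markers ran from 60418 to 76261 CPM in control, 23610 to 26811 CPM in H/R and 27878 to 36379 CPM in LITAF libraries, with Dcn at 0 throughout.

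The control and H/R columns were not independent of each other. In H/R libraries, 5347 values were 0 in genes with a count in some other H/R library, and the control library of the same replicate number was 0 in all 5347 of them. Control libraries of another number were 0 in 12161 of 16041 such look-ups (75.8%), and LITAF libraries of the same number in 3293 of 5347 (61.6%). Among the members, 12 of 12 such values were 0 in the control library of the same number and 3 of 12 in the LITAF library of the same number. For some members the ratio of counts between same-numbered control and H/R libraries was nearly fixed: for Ttn, where it varied least, it was 18.2 to 19.4, although its H/R counts differed 2.73-fold between libraries. For others it was not: between the 4 numbers it varied 1.71-fold for Acta1, whose H/R counts differed 1.07-fold, and 52.1-fold for Myh8, which has few counts. The cause was not tested. LITAF against H/R is therefore given first, with the fit of those 2 groups alone beside it, and every value against control carries this limit.

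**Figure D1:**
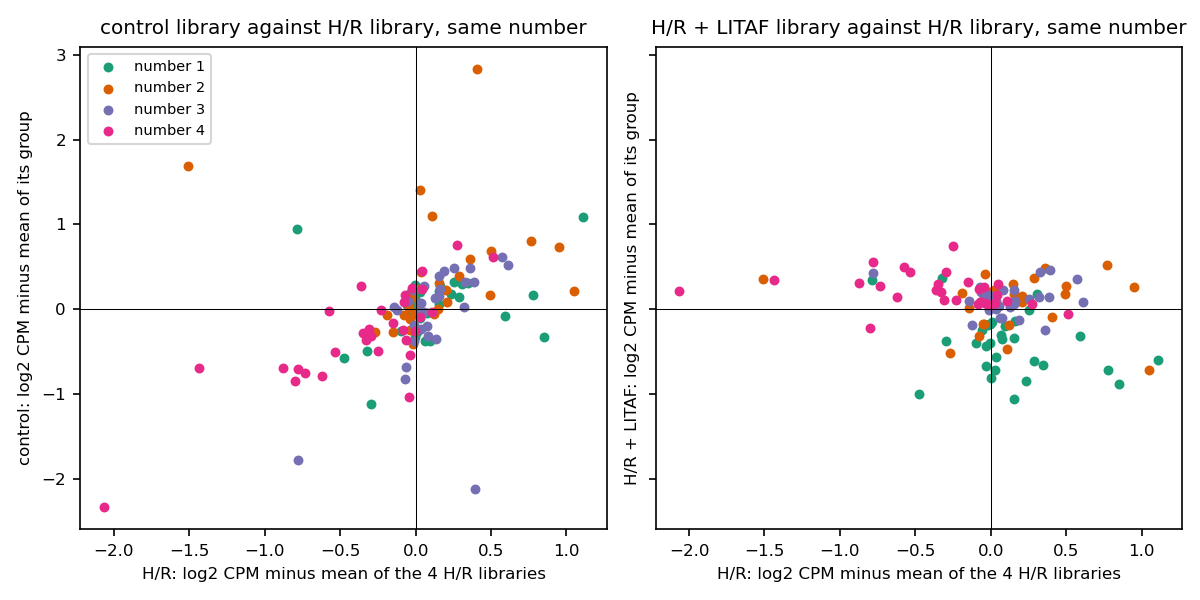
Each of 124 points is 1 of 31 tested members in 1 replicate number, drawn as the deviation of its log2 CPM from its group mean; the x axis is the H/R library and the y axis the control library (one panel) or the LITAF library (the other) of the same number. Control deviations run with H/R deviations (Pearson r 0.45, a description over members that share libraries), and LITAF deviations do not (r -0.29); Unc45b, at 0 in a control and an H/R library, is not drawn.

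With LITAF, 11 of the members tested were higher than after H/R with the empty vector, and 0 fell. The genes that rose were the embryonic myosin heavy chain Myh3, the fast light chain Myl11, the troponins Tnni1, Tnni2, Tnnt2 and Tnnt3, the sarcomeric actins Actc1 and Acta1, the myosin-binding protein Mybph, the actin-binding repeat protein Xirp1 and the fusion protein Mymk. Fold changes ran from 1.94-fold for Xirp1 and Mymk to 7.55-fold for Tnni1, at n = 4 against 4. Titin, nebulin, most Z-disc genes, the tropomyosins, desmin and the chaperones were not called. In bulk RNA, a change in the number of cells that express a gene and a change in RNA per cell cannot be told apart.

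Of the 45 members in the table, 32 passed the filter on low counts and were tested, and 11 of these 32 rose (edgeR's quasi-likelihood test, Benjamini-Hochberg over 11398 genes, adjusted p under 0.05). Over all genes tested, 3.73% rose and 1.15% fell, 4.88% together. None of the 32 reached the filter's level in libraries of 1 group only. Tnni1, the largest rise, reached it in 4 LITAF, 2 control and 0 H/R libraries. It was therefore tested through the group where it is high. Changes of at least 2-fold were called in 9 members, against 1.16% of all genes. CPM did not overlap between the groups, with LITAF higher, in 14 of the 32 members, against 10.6% of all genes, and with LITAF lower in 1 (Tpm3), against 8.30%. The median log2 fold change was 0.68 over the tested members and -0.01 over all genes, and 27 of 32 members were above 0. Fitted without the control libraries, 14 of 31 tested members rose and 0 fell, where 6.91% of all genes rose and 2.87% fell: Myh1, Myh2, Myom1 and Unc45b were then called and Mymk was not.

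**Figure D2:**
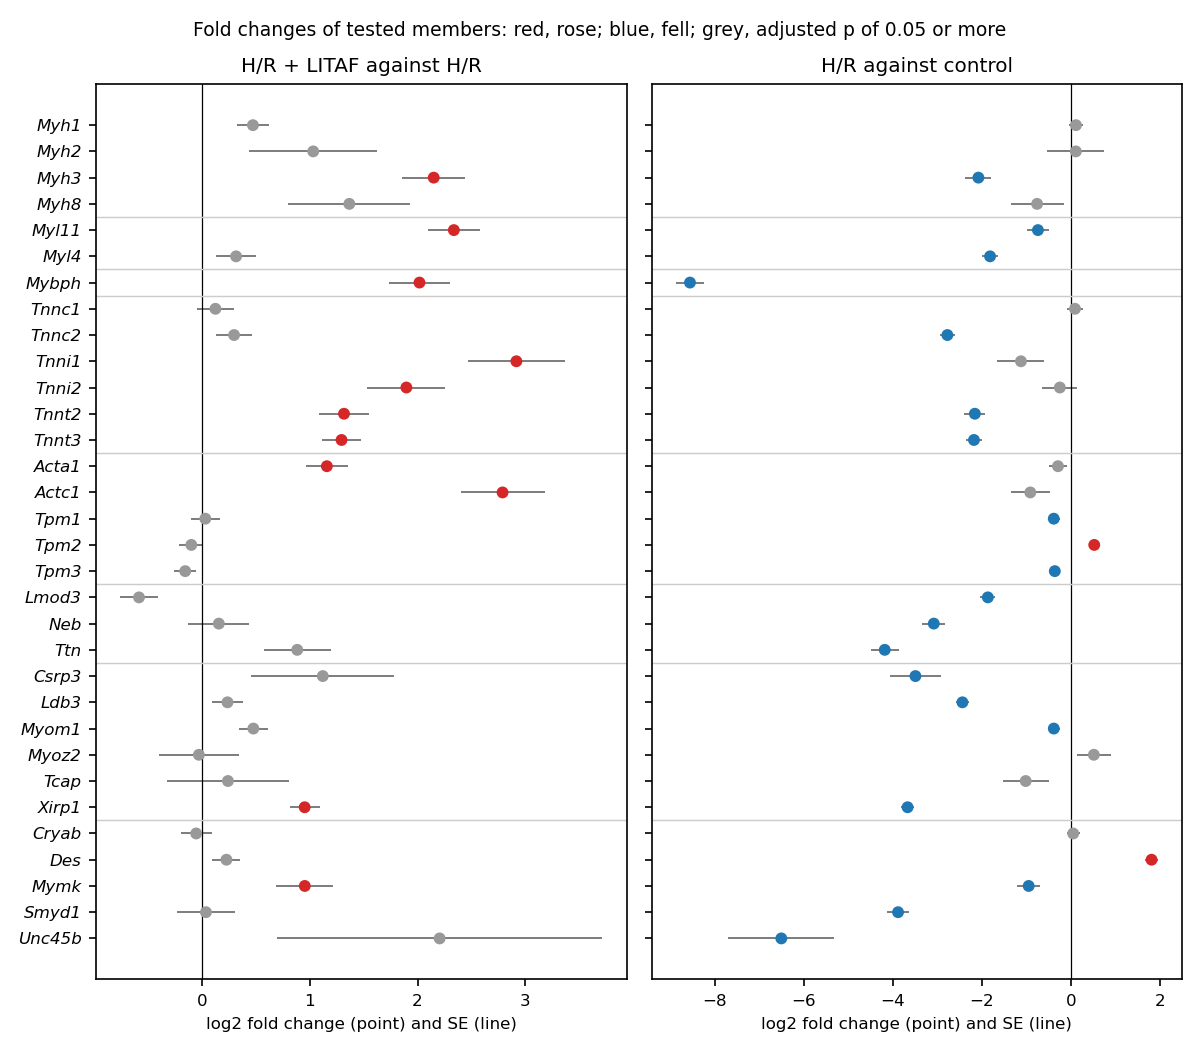
Log2 fold change (x axis) with its SE for the 32 tested members (y axis, grouped by role), LITAF against H/R in one panel and H/R against control in the other, on different x scales; red rose, blue fell and grey was not called. With LITAF the 11 called members all lie to the right of 0, and after H/R 19 of the 21 called members lie to the left.

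Against control, the members as tested were mostly lower after H/R. In that comparison 19 of 32 fell and 2 rose (Des and Tpm2), where 31.8% of all genes fell and 31.8% rose, 63.6% together. At least 2-fold changes were called in 15 of 32 members against 22.5% of genes. The H/R libraries lay below all control libraries in 17 members (28.3% of all genes) and above them in 2 (30.2%). The median log2 fold change was -0.98 over the tested members and 0.01 over all genes. The LITAF group against control gave 8 higher and 15 lower members, where 32.0% of genes were higher and 32.6% lower, 64.6% together, with a member median of -0.18 and -0.01 over all genes. The last comparison shares its libraries with the other 2, so its counts are no separate evidence.

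Near-zero members were counted as those under 1 CPM in all 4 libraries of a group. After H/R these numbered 18 of 45, against 12 in control and 14 with LITAF. The same 12 were near zero in every group: Actn2, Actn3, Ckm, Lmod2, Mybpc1, Mybpc2, Mybpc3, Myh4, Myh6, Myh7, Myl2 and Tnnt1. These include the cardiac and slow myosins Myh6 and Myh7, the ventricular light chain Myl2, the cardiac myosin-binding protein Mybpc3, the sarcomeric alpha-actinins and muscle creatine kinase. Another 6 were near zero after H/R and not in control: Actc1, Myh8, Mylk2, Tcap, Tnni1 and Unc45b. Of those, Actc1, Myh8, Tnni1 and Unc45b were above 1 CPM in at least 1 LITAF library, while Mylk2 and Tcap were not. Actc1, Myh8, Tcap and Tnni1 were not called between control and H/R (edgeR's quasi-likelihood test, adjusted p = 0.0770, 0.277, 0.0931 and 0.0728). In control, Myh8 and Tnni1 each passed 1 CPM in 1 library, at 1.44 CPM, and Tcap had 20, 11, 3 and 15 counts. The place of these members among the 6 rests on values close to the limit. With a limit of 0.5 CPM the counts were 7 in control, 13 in H/R and 8 in LITAF.

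**Figure D3:**
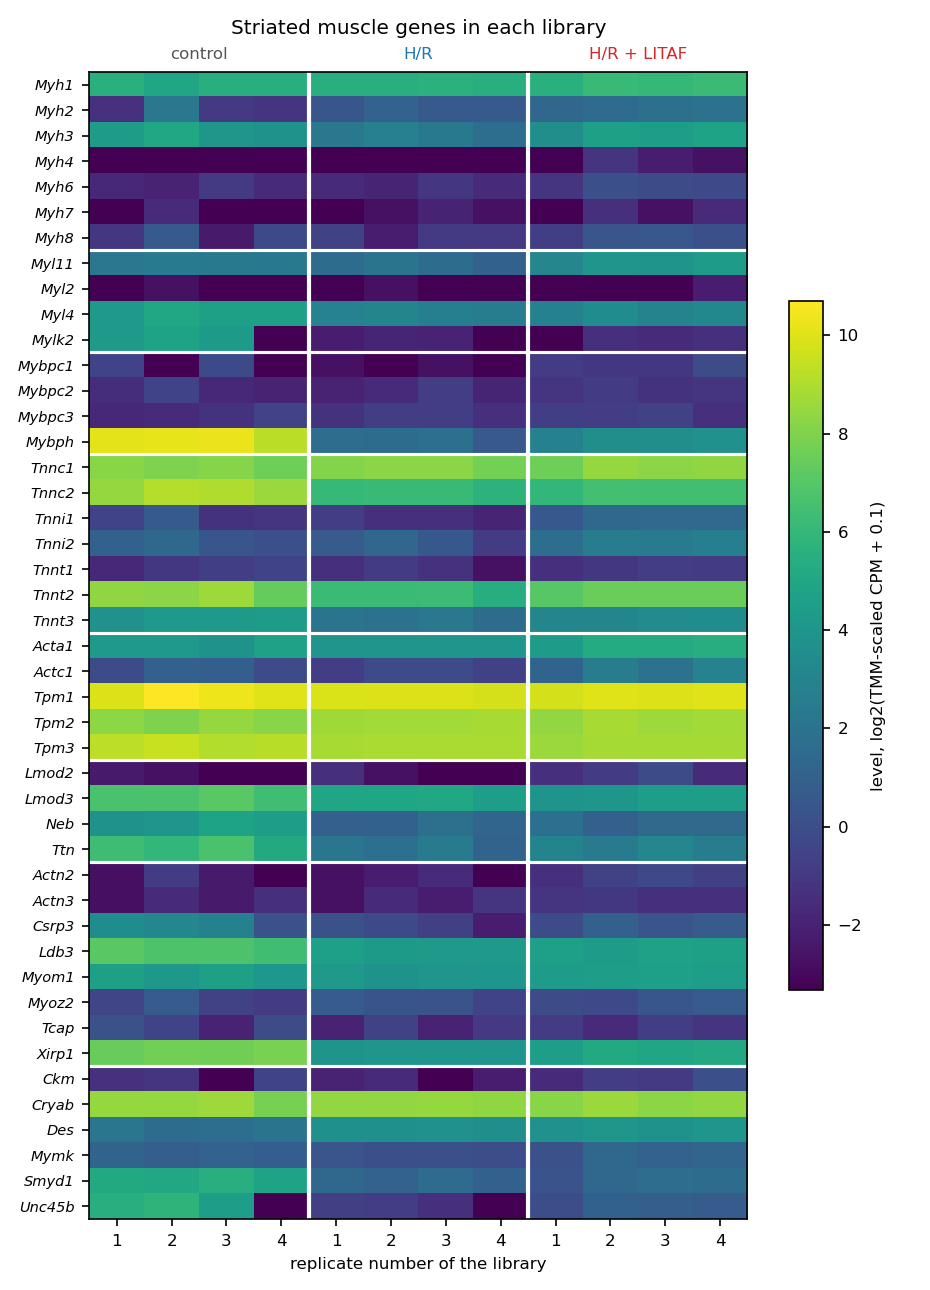
Heat map of log2 (CPM + 0.1) for the 45 members (rows, grouped by role) in the 12 libraries (columns, by group and replicate number). The 12 near-zero members stay dark in every group, and Ttn, Mybph, Smyd1, Unc45b and Mylk2 are brighter in control than in the other groups, apart from control replicate 4, where Unc45b and Mylk2 have no count.

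Among the myosin heavy chains, 4 of 7 were tested and only Myh3 was called with LITAF or after H/R. The shares called over all genes were 4.88% and 63.6%. Myh3 is the embryonic heavy chain, made early in muscle differentiation and regeneration. It stood at 4.79, 6.79, 4.91 and 3.31 CPM in H/R replicates 1 to 4 and at 11.9, 25.2, 22.4 and 28.4 CPM in the LITAF libraries. Every LITAF library was above every H/R library, and LITAF replicate 1 was the lowest of its group. Myh3 rose 4.44-fold (log2 2.15 ± 0.29 SE, edgeR's quasi-likelihood test, adjusted p = 0.000342). Control libraries held 20.6, 32.1, 17.03 and 14.02 CPM, so the fall after H/R was 4.23-fold (log2 -2.08 ± 0.29, adjusted p = 1.17e-05) and the LITAF mean of 21.97 ± 7.16 CPM lay beside the control mean of 20.96 ± 7.92 CPM.

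The adult fast heavy chain Myh1 did not pass the test in either of these comparisons. Its CPM was 48.4, 31.7, 46.1 and 44.8 in control, 45.2, 45.5, 50.3 and 43.6 in H/R, and 46.7, 70.5, 64.5 and 74.6 in LITAF libraries. LITAF replicate 1 fell among the H/R libraries and the other LITAF libraries lay above all of them (log2 0.47 ± 0.15, adjusted p = 0.0806). Without LITAF replicate 1 the call was made (log2 0.62, adjusted p = 0.00883), and against control Myh1 was higher (log2 0.58 ± 0.15, adjusted p = 0.00267).

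Myh2, another adult fast chain, was 0.306, 4.72, 0.412 and 0.324 CPM in control, 1.22, 2.00, 1.44 and 1.46 CPM in H/R and 2.39, 2.89, 3.55 and 3.69 CPM in LITAF libraries. Control replicate 2 stood apart from the other control libraries, and the LITAF libraries were all above the H/R libraries. LITAF against H/R gave log2 1.03 ± 0.59 (adjusted p = 0.353), but the 2 groups alone gave adjusted p = 0.0140. Without control replicate 2, H/R against control went from log2 0.11 to 2.12 (adjusted p = 3.33e-05), so the direction of Myh2 after H/R rests on that library. Myh1, Myh2, Myh3, Myh4 and Myh8 are close paralogs in 1 gene cluster, and a method that counts by estimate may divide reads between them unevenly.

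Myh8, the perinatal chain, was 0.357, 1.44, 0.103 and 0.755 CPM in control, 0.586, 0.114, 0.427 and 0.393 CPM in H/R and 0.512, 1.20, 1.29 and 0.979 CPM with LITAF. The groups overlapped, and the difference with LITAF did not pass the test (log2 1.37 ± 0.56, adjusted p = 0.186). Myh4, the fastest adult chain, had no count in the 8 control and H/R libraries, where 3 counts over a group would be 0.0397 CPM in control and 0.0412 CPM in H/R. In the LITAF libraries Myh4 had 0, 6, 2 and 1 counts after rounding. Myh6 had group means of 0.245 to 0.720 CPM.

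Myl11, the fast regulatory light chain, had the smallest adjusted p of the members with LITAF. It stood at 2.98, 4.11, 3.04 and 1.96 CPM in H/R and at 8.87, 16.6, 15.0 and 20.7 CPM in LITAF libraries, with control at 4.69, 5.67, 4.94 and 4.96 CPM. All LITAF libraries were above all libraries of both other groups, and replicate 1 was again the lowest of them. The rise over H/R was 5.05-fold (log2 2.34 ± 0.24, edgeR adjusted p = 1.59e-05) and that over control 3.02-fold (adjusted p = 1.21e-05). H/R was lower than control (log2 -0.74 ± 0.25, adjusted p = 0.0149), a call that was lost without H/R replicate 4 (adjusted p = 0.0567).

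Myl4, the atrial and embryonic essential light chain, did not follow Myl11. Its CPM was 18.9, 32.2, 24.4 and 24.5 in control, 7.35, 8.55, 6.45 and 6.00 in H/R and 7.05, 11.3, 7.64 and 9.39 with LITAF. It fell 3.53-fold after H/R (log2 -1.82 ± 0.18, adjusted p = 2.61e-07) and was not called with LITAF (log2 0.32 ± 0.19, adjusted p = 0.362), where the groups overlapped. Mylk2, the kinase of the fast light chain, had 356, 507, 387 and 0 counts in control, 2, 3, 3 and 0 in H/R and 0, 5, 4 and 5 with LITAF. The library at 0 in control and that in H/R both carry the number 4. Mylk2 did not pass the filter, and fitted without a filter it was lower after H/R (log2 -7.14 ± 1.45, edgeR adjusted p = 0.00230).

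Of the 7 troponin genes 6 were tested, and 4 of them rose with LITAF, where 3.73% of all genes rose. Troponin I holds the thin filament off in the absence of calcium. Tnni1, its slow skeletal form and the one made in developing heart, was 0.479, 0.285, 0.267 and 0.168 CPM in H/R and 1.36, 2.51, 2.69 and 2.71 CPM with LITAF. The groups did not overlap, and the rise was 7.55-fold from a low level (log2 2.92 ± 0.45, adjusted p = 0.00101). Control held 0.612, 1.44, 0.309 and 0.324 CPM, and the difference between H/R and control did not pass (adjusted p = 0.0728). Tnni2, the fast form, had a mean of 1.42 ± 0.777 CPM in H/R and 5.28 ± 1.46 CPM with LITAF (log2 1.90 ± 0.36, adjusted p = 0.00606). Its lowest LITAF library, at 3.24 CPM, was above the highest H/R library at 2.34 CPM.

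Troponin T ties troponin to tropomyosin. Tnnt2, the cardiac form that is also made in embryonic skeletal muscle, stood at 336, 306, 404 and 168 CPM in control, 73.6, 76.3, 78.9 and 42.9 CPM in H/R and 132, 178, 182 and 185 CPM with LITAF. The H/R libraries lay below both other groups, and replicate 4 was the lowest in control and in H/R. Tnnt2 fell 4.47-fold after H/R (log2 -2.16 ± 0.23, adjusted p = 6.78e-07) and was 2.49-fold higher with LITAF than after H/R (log2 1.32 ± 0.23, adjusted p = 0.00296). It was still lower with LITAF than in control (log2 -0.84 ± 0.23, adjusted p = 0.00378), although control replicate 4 lay within the LITAF range.

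Tnnt3, the fast form, showed the same order of groups. Its CPM was 13.7, 18.7, 18.01 and 21.4 in control, 4.15, 3.76, 4.85 and 3.03 in H/R and 8.41, 8.52, 10.7 and 11.3 with LITAF. The 3 groups did not overlap, with H/R lowest and control highest. The fall after H/R was 4.53-fold (log2 -2.18 ± 0.17, adjusted p = 1.93e-08) and the rise with LITAF 2.45-fold (log2 1.30 ± 0.18, adjusted p = 0.000342).

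Troponin C, the calcium-binding subunit, was not called with LITAF in either form. Tnnc2, the fast form, was 357, 556, 527 and 381 CPM in control, 65.8, 73.3, 73.5 and 53.1 CPM in H/R and 61.5, 91.5, 86.5 and 87.2 CPM with LITAF. LITAF replicate 1 lay among the H/R libraries and the other LITAF libraries above them (log2 0.30 ± 0.16, adjusted p = 0.324). Tnnc2 fell 6.85-fold after H/R (log2 -2.78 ± 0.17, adjusted p = 9.35e-10). Tnnc1, the slow and cardiac form, had overlapping values in all 3 groups, from 197 to 358 CPM, and was called in neither comparison (adjusted p = 0.733 with LITAF and 0.668 after H/R).

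Among actins and tropomyosins, both sarcomeric actins rose with LITAF and no tropomyosin was called. Actc1, cardiac alpha-actin, is also the main sarcomeric actin of embryonic skeletal muscle. It was 0.816, 1.83, 1.70 and 0.863 CPM in control, 0.479, 0.855, 0.853 and 0.561 CPM in H/R and 2.16, 6.06, 3.66 and 7.26 CPM with LITAF. Every LITAF library was above all 8 others, with replicate 1 again the lowest. The rise over H/R was 6.91-fold (log2 2.79 ± 0.39, adjusted p = 0.000413). Control and H/R overlapped and the difference did not pass (log2 -0.91 ± 0.44, adjusted p = 0.0770), while the fit with the replicate number as a block did call it (adjusted p = 0.0301).

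Acta1, skeletal alpha-actin, was 15.7, 15.9, 15.9 and 16.5 CPM in H/R and 21.7, 39.9, 38.7 and 42.6 CPM with LITAF. Control ran 19.0, 18.5, 14.8 and 26.2 CPM. The LITAF libraries were above all H/R libraries, and replicate 1 lay within the control range. Acta1 rose 2.23-fold over H/R (log2 1.16 ± 0.19, adjusted p = 0.00197) and 1.82-fold over control (log2 0.87 ± 0.19, adjusted p = 0.000807), with no call between H/R and control (adjusted p = 0.195).

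Tropomyosin lies along actin and covers its myosin-binding sites. The 3 genes also make tropomyosins of non-muscle cells, and gene counts do not separate those isoforms. Tpm1 was 1010, 1656, 1286 and 1030 CPM in control, 956, 975, 977 and 899 CPM in H/R and 874, 1016, 988 and 1016 CPM with LITAF. H/R was below control (log2 -0.39 ± 0.13, adjusted p = 0.0179), a call lost without control replicate 2 (adjusted p = 0.0765) or H/R replicate 4 (adjusted p = 0.0515) and with scaling by library totals (adjusted p = 0.0884).

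Tpm2 was 315, 257, 354 and 297 CPM in control, 421, 427, 435 and 471 CPM in H/R and 344, 456, 405 and 436 CPM with LITAF. It was 1 of the 2 members that rose after H/R, where it lay above all control libraries (log2 0.52 ± 0.11, adjusted p = 0.000734). Tpm3 was 627, 724, 537 and 577 CPM in control, 473, 479, 474 and 488 CPM in H/R and 378, 450, 439 and 453 CPM with LITAF. Its LITAF libraries all lay below the H/R libraries, but the difference was small and did not pass (log2 -0.15 ± 0.10, adjusted p = 0.428). After H/R it fell 1.29-fold (log2 -0.36 ± 0.10, adjusted p = 0.00522), which upper-quartile scaling did not call (adjusted p = 0.0570).

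Titin, nebulin and leiomodin 3 fell after H/R, and none was called with LITAF. Ttn encodes titin, the spring and ruler that spans from Z-disc to M-band. It was 80.5, 62.7, 101 and 36.3 CPM in control, 4.47, 3.42, 5.39 and 2.08 CPM in H/R and 7.90, 5.63, 8.93 and 5.99 CPM with LITAF. Each LITAF library was above every H/R library, yet the difference did not pass (log2 0.88 ± 0.31, adjusted p = 0.117). The fall after H/R was 18.2-fold (log2 -4.18 ± 0.31, adjusted p = 8.06e-09).

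Neb, nebulin of the thin filament, was 14.02, 16.4, 28.3 and 23.5 CPM in control, 1.86, 1.94, 3.57 and 2.30 CPM in H/R and 3.41, 1.86, 2.80 and 2.76 CPM with LITAF. It fell 8.47-fold after H/R (log2 -3.08 ± 0.26, adjusted p = 2.89e-08), and the LITAF and H/R libraries overlapped (adjusted p = 0.803). Lmod3, which nucleates actin filaments in skeletal muscle, was 101, 99.9, 137 and 85.5 CPM in control, 30.2, 31.2, 31.9 and 22.6 CPM in H/R and 14.9, 16.8, 22.3 and 23.4 CPM with LITAF. It fell 3.65-fold after H/R (log2 -1.87 ± 0.17, adjusted p = 9.93e-08). Of the tested members it had the lowest log2 fold change with LITAF, which did not pass (log2 -0.58 ± 0.17, adjusted p = 0.0634) but did without H/R replicate 4 (adjusted p = 0.0468), without control replicate 3 (adjusted p = 0.0397) and by DESeq2 (adjusted p = 0.0220).

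At the Z-disc and M-band, 1 of 6 tested members rose with LITAF and 4 fell after H/R. The shares over all genes were 3.73% and 31.8%. Xirp1 encodes a striated muscle protein that binds actin at cell junctions and in growing or damaged myofibrils. It was 170, 212, 198 and 239 CPM in control, 15.0, 16.3, 16.4 and 16.5 CPM in H/R and 23.4, 35.8, 30.9 and 34.4 CPM with LITAF. The 3 groups did not overlap. The fall after H/R was 12.7-fold (log2 -3.67 ± 0.15, adjusted p = 6.51e-12) and the rise with LITAF 1.94-fold (log2 0.95 ± 0.14, adjusted p = 0.000591), so the LITAF libraries stayed 6.57-fold below control.

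Ldb3, a Z-disc scaffold, was 135, 109, 110 and 83.7 CPM in control, 23.9, 19.5, 18.1 and 19.2 CPM in H/R and 23.5, 21.1, 25.5 and 25.1 CPM with LITAF. It fell 5.42-fold after H/R (log2 -2.44 ± 0.14, adjusted p = 4.82e-10) and overlapped between H/R and LITAF (adjusted p = 0.365). Csrp3, the muscle LIM protein, was 10.96, 9.003, 7.05 and 1.02 CPM in control, 1.01, 0.798, 0.533 and 0.112 CPM in H/R and 0.853, 1.86, 1.18 and 1.497 CPM with LITAF. Replicate 4 was the lowest of both control and H/R. Csrp3 fell 11.3-fold after H/R (log2 -3.49 ± 0.58, adjusted p = 5.91e-05), and its difference with LITAF did not pass (log2 1.12 ± 0.66, adjusted p = 0.368).

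Myom1, an M-band cross-linker, was 25.2, 17.3, 24.8 and 17.4 CPM in control, 18.1, 14.6, 16.0 and 16.2 CPM in H/R and 20.5, 22.8, 23.6 and 23.4 CPM with LITAF. All LITAF libraries were above the H/R libraries by a narrow margin (log2 0.48 ± 0.14, adjusted p = 0.0566). The 2 groups alone called it (adjusted p = 0.0107), as did the fits without any 1 control library (adjusted p = 0.0395 to 0.0460) or without LITAF replicate 1 (adjusted p = 0.0269). Its fall after H/R (log2 -0.39 ± 0.14, adjusted p = 0.0217) was lost without control replicate 1 or 3 and without H/R replicate 2 or 3 (adjusted p = 0.0505 to 0.0795) and when scaled by library totals (adjusted p = 0.108) or upper quartiles (adjusted p = 0.0990). Myoz2 and Tcap, which bind calcineurin and the end of titin, had group means of 0.790 to 1.12 CPM and 0.321 to 0.649 CPM and were not called in either comparison.

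Mybph, myosin-binding protein H of the thick filament, showed the largest fall of the tested members after H/R. It was 1101, 1162, 1240 and 613 CPM in control, 3.14, 2.97, 3.36 and 1.40 CPM in H/R and 7.05, 12.0, 11.8 and 13.4 CPM with LITAF. The 3 groups did not overlap. Mybph fell 377-fold after H/R (log2 -8.56 ± 0.32, adjusted p = 3.77e-12) and rose 4.05-fold with LITAF (log2 2.02 ± 0.28, adjusted p = 0.000397), where it was still 93.0-fold below control. Its counts in same-numbered control and H/R libraries stood in a ratio of 366 to 454.

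The myosin chaperones Unc45b and Smyd1, which fold and assemble the myosin motor, fell after H/R. Smyd1 was 36.3, 33.2, 43.5 and 28.0 CPM in control, 2.61, 2.05, 2.93 and 1.91 CPM in H/R and 1.08, 2.57, 3.07 and 3.05 CPM with LITAF. Its fall was 14.8-fold (log2 -3.88 ± 0.24, adjusted p = 8.03e-10), and H/R and LITAF overlapped (log2 0.04 ± 0.27, adjusted p = 0.954). Unc45b had 875, 983, 445 and 0 counts in control, 10, 9, 5 and 0 in H/R and 16, 36, 33 and 26 with LITAF.

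Replicate 4 of control and of H/R both lacked Unc45b. The fall after H/R was log2 -6.51 ± 1.19 (adjusted p = 0.000329). Each LITAF library held more CPM than any H/R library, and the test gave log2 2.20 ± 1.51 (adjusted p = 0.452), with a call in the 2 groups alone (adjusted p = 0.0230) and without control replicate 4 (adjusted p = 0.0346).

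Des and Mymk moved in other ways. Des, desmin, links Z-discs to one another as the muscle intermediate filament. It was 4.43, 3.06, 3.19 and 4.10 CPM in control, 12.9, 12.9, 13.7 and 12.3 CPM in H/R and 13.4, 17.2, 14.1 and 16.1 CPM with LITAF. It rose 3.502-fold after H/R, above all control libraries (log2 1.81 ± 0.14, adjusted p = 1.63e-08), and was not called with LITAF (adjusted p = 0.349).

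Mymk, or myomaker, is needed for myoblasts to fuse into myotubes. It was 2.19, 1.78, 2.06 and 1.73 CPM in control, 1.17, 0.970, 0.960 and 0.898 CPM in H/R and 1.02, 2.46, 1.99 and 2.30 CPM with LITAF. LITAF replicate 1 lay among the H/R libraries, and the call was marginal (log2 0.95 ± 0.26, adjusted p = 0.0476). It was lost in 16 of 22 alternatives, whose adjusted p ran from 0.00401 to 0.156 over all 22. Leaving out any 1 H/R library, LITAF replicate 2, 3 or 4, or control replicate 1 or 3 lost it. After H/R Mymk was lower (log2 -0.95 ± 0.26, adjusted p = 0.00456), with no overlap. Cryab, the small heat shock protein that protects desmin, ran from 223 to 394 CPM over all libraries and was called in neither comparison (adjusted p = 0.876 and 0.780).

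**Figure D4:**
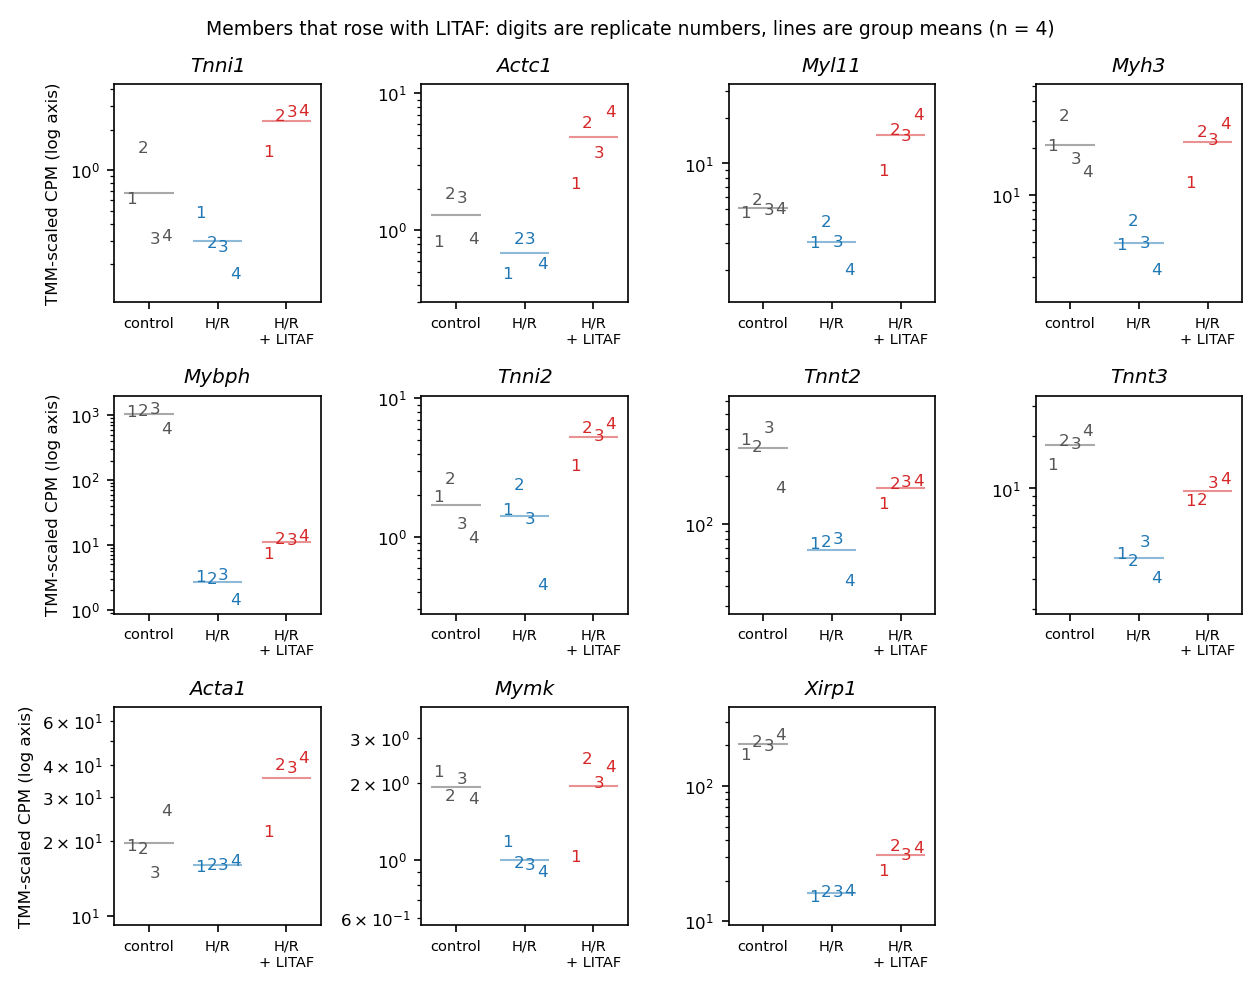
CPM (log y axis) of the 11 members that rose with LITAF, 1 panel each; digits are replicate numbers, placed by group, and lines are group means. LITAF replicate 1 is the lowest LITAF library in each of the 11 panels, and only in Mymk does it fall within the H/R range.

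The 13 members that did not pass the filter were fitted once without it. None was called with LITAF against H/R (edgeR's quasi-likelihood test). The smallest adjusted p was that of Mybpc1, the slow myosin-binding protein C (0.0536, log2 3.95 ± 1.10), at group means of 0.0266 CPM in H/R and 0.519 CPM with LITAF. After H/R, Mylk2 and Mybpc1 (log2 -3.38 ± 1.16, adjusted p = 0.0215) were called lower. All of these except Mylk2 had at most 18 counts in any library, so their folds are poorly bounded.

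The LITAF libraries differed among themselves in how far the members rose. Relative to the H/R mean, the median over the 11 risen members was 2.29 in LITAF replicate 1, 4.32 in replicate 2, 3.72 in replicate 3 and 4.60 in replicate 4. Replicate 1 was the lowest LITAF library for 11 of the 11 risen and 27 of the 32 tested members, where it was the lowest for 39.5% of all genes tested. Litaf itself was highest in replicate 1, at 2691 CPM, against 2008, 2532 and 2120 CPM in replicates 2 to 4. Among the H/R libraries, replicate 4 was the lowest for 21 of 32 members and for 34.5% of all genes, and its ratio was 0.669 against 1.01 to 1.09 in the others. Without LITAF replicate 1, 13 of the same 32 members rose (Myh1 and Myom1 in addition), where 6.01% of all genes rose and 5.15% fell. Without control replicate 4, which shares its zeros with H/R replicate 4, 13 of the 32 rose (Myom1 and Unc45b in addition), where 4.50% of all genes rose. In both of these fits the smaller group let more members through the filter, 35 in all, and of the added ones Mybpc1 and Myh6 rose. Myh6 had at most 8 counts in any control or H/R library and 13 to 18 in LITAF replicates 2 to 4. It was therefore tested through the group where it is high. With both number 4 libraries of control and H/R left out, 10 rose and 1 fell, where 3.26% of all genes rose.

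Related genes were taken from lists that hold no member. The counts of these lists stand beside the shares over all genes tested. With LITAF 3.73% of all genes rose and 1.15% fell, and after H/R 31.8% rose and 31.8% fell. Of 21 tested sarcomere-associated genes, 5 rose with LITAF and 0 fell, and 4 rose and 10 fell after H/R. The LITAF rises include the ubiquitin ligase genes Fbxo32 (log2 0.97 ± 0.20, adjusted p = 0.0107) and Trim63 (0.73 ± 0.16, adjusted p = 0.0148), Klhl40, which stabilises Lmod3 and nebulin (1.02 ± 0.23, adjusted p = 0.0162), and the M-band gene Myom2 (1.98 ± 0.51, adjusted p = 0.0351). After H/R the clearest falls were Synpo2l (log2 -2.44), Hspb7 (-1.53), Fbxo32 (-2.64) and Trim55 (-1.19). The median of these genes with LITAF was log2 0.08.

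In the list of muscle calcium handling and excitation, 2 of 11 tested genes rose with LITAF and 0 fell, both of them subunits of the muscle acetylcholine receptor. Chrnd went from 0.208 ± 0.156 to 1.29 ± 0.440 CPM (log2 2.60 ± 0.42, adjusted p = 0.00153) and Chrna1 from 0.165 ± 0.0993 to 0.738 ± 0.0714 CPM (log2 2.12 ± 0.42, adjusted p = 0.00774). Both H/R means lay under the filter's level of 0.55 CPM and both LITAF means above it. Chrnd and Chrna1 may therefore have been tested through the group where they are high. After H/R 3 rose and 6 fell, where 63.6% of all genes were called. The falls were led by Pln, which encodes phospholamban, the brake on the calcium pump (log2 -8.02 ± 0.17). Of 7 metabolic genes, Pygm, muscle glycogen phosphorylase, rose with LITAF (log2 1.61 ± 0.27, adjusted p = 0.00256), and 3 rose and 4 fell after H/R, Ldhb (-2.11) and Cox6a2 (3.40) among them.

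Of 10 tested myogenic regulators and fusion genes, Srf and Mymx rose with LITAF and 0 fell. Srf, serum response factor, which binds CArG boxes, was 91.9, 87.3, 82.4 and 86.7 CPM in H/R and 120, 175, 145 and 168 CPM with LITAF. The groups did not overlap and Srf rose 0.81 ± 0.15 on the log2 scale (adjusted p = 0.00482). Mymx, or myomixer, the partner of myomaker in fusion, rose from 0.205 ± 0.147 to 1.27 ± 0.238 CPM (log2 2.58 ± 0.62, adjusted p = 0.0236). Its H/R mean lay under the filter's level of 0.55 CPM and its LITAF mean above it. Mymx may therefore have been tested through the group where it is high. Myog, myogenin, which starts terminal differentiation, was 15.9, 19.6, 15.8 and 4.99 CPM in H/R and 18.02, 39.5, 33.7 and 36.7 CPM with LITAF, which did not pass (log2 1.19 ± 0.46, adjusted p = 0.168). From control to H/R Myog fell by 8.10 on the log2 scale. Summed skeletal myotube markers, Myog among them, ran from 2220 to 6469 CPM in control and 510 to 646 CPM in H/R. Control libraries thus differed widely among themselves.

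Markers of other cell types were read beside these rises. Of 7 smooth muscle markers 0 were called with LITAF, their summed CPM was 6858 to 7150 in H/R and 5554 to 8512 with LITAF, and 4 rose and 1 fell after H/R. Over all genes, 4.88% were called with LITAF and 63.6% after H/R. Of 8 skeletal myotube markers 6 were tested and 3 rose with LITAF. These are Mymk and Acta1, which are members here, and Chrna1, already given above, so the count adds no further gene. Of 5 tested fibroblast markers Col3a1 rose (log2 0.61 ± 0.13, adjusted p = 0.0125), and of the epithelial markers Krt8 rose (log2 0.79 ± 0.18, adjusted p = 0.0167), from 29.3 to 39.8 CPM in H/R to 39.8 to 76.0 CPM with LITAF. The part of these cell types in the members' changes was not tested.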

How the data were processed

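Per the labels' protocols, polyadenylated RNA of H9C2 cells was enriched with oligo(dT) beads and sequenced. Per the file headers, the authors deposited expected counts per gene, not normalized, with rat Ensembl IDs. The tools in the submitters' processing notes are DESeq2 and edgeR. For aligner, build and strand the sources used here give nothing, so close paralogs and overlapping genes are uncertain. Decimals stood in 2.79 to 3.34% of values in control, 11.1 to 12.0% in H/R and 11.6 to 12.3% in LITAF columns and were rounded. From 16204 rows, 72 gene IDs with differing rows were left out. Groups and numbers follow the sample titles.

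All 12 libraries entered 1 fit (edgeR 4.0.16, limma 3.58.1, R 4.3.3; filterByExpr, TMM, robust quasi-likelihood test, two-sided, Benjamini-Hochberg over 11398 genes, threshold 0.05), tested on simulated data. The simulated libraries were drawn independently, unlike the control and H/R columns, so the simulation does not check the p-values of H/R against control. SE was taken as absolute log2 fold change over the root of F. The common biological coefficient of variation was 14.5%. Low counts limit the precision of members under 1 CPM. Alternatives were DESeq2 1.42.0, other scalings, no filter, the 2 groups alone, a replicate block and each library left out. The block with 2 groups alone, and leaving out both number 4 libraries, were added after the data were seen.

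Same-numbered deviations correlated 0.30 to 0.57 over genes between control and H/R (every pair over 0.1, so paired; the pairing comes from the values, not the labels), 0.05 to 0.20 between H/R and LITAF and 0.05 to 0.10 between control and LITAF. Unless the block is named, SE and p-values for H/R against control come from the fit without this pairing. They do not measure the spread of the paired differences. Members and lists were chosen with earlier results of these data known. By rule, values per library are given for up to 3 tested members of each role with the smallest adjusted p in LITAF against H/R and up to 3 in H/R against control; up to 4 called genes of each related list and comparison are named. Myh2 was given in full, and 2-group values and single-library effects were chosen for print, after their values were seen.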

Additional observations from a re-analysis of the deposited data

Results flagged for a closer look

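In 6 of 99 groups of 4 libraries (the 32 tested members and Litaf in 3 groups), 1 library lay so far from the other 3 that its gap to the nearest exceeded Dixon's critical share of the whole range. Chance flags about 1 in 20 such groups. In control, Myh2 was 4.72 CPM in replicate 2 against 0.306 to 0.412 CPM in the others. In H/R, Tnnt2 was 42.9 CPM in replicate 4 against 73.6 to 78.9 CPM, and Xirp1 was 15.0 CPM in replicate 1 against 16.3 to 16.5 CPM. Another 3 concern LITAF replicate 1: Tnnc2 at 61.5 CPM against 86.5 to 91.5 CPM, Tnni1 at 1.36 CPM against 2.51 to 2.71 CPM, and Tnnt2 at 132 CPM against 178 to 185 CPM. No cause was tested.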

How the results depend on the processing

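Of 1906 values of single members under the alternatives, over 87 results, 1806 kept direction and side of the threshold, 40 passed it, 38 no longer passed it and 22 changed sign, none of the last from a called value. The 10 members that rose with LITAF other than Mymk were called under each of the 22 alternatives run for them. With each library left out in turn, 10 to 16 members were called with LITAF against H/R (most without control replicate 2, where 14 of the same 32 rose and Mybpc1 and Myh6, which then passed the filter, rose too), 20 to 24 for H/R against control and 23 to 26 for LITAF against control, and the other alternatives gave 9 to 14, 15 to 23 and 16 to 28. Myh6 passed the filter there only through LITAF libraries, the group where it is high. Over all genes, leaving out 1 library gave 1.78 to 6.01% risen and 0.278 to 5.15% fallen with LITAF against H/R. H/R against control gave 29.3 to 32.9% and 29.4 to 33%, and LITAF against control 29.5 to 32.7% and 30 to 33.2%. The other fits gave, in this order, 2.7 to 6.91%, 24 to 38.6% and 25.4 to 36.8% risen. They gave 0.901 to 2.87%, 23.2 to 35.4% and 23.7 to 34% fallen. The lows of 9, 15 and 16 are calls of at least 2-fold, made in 1.16%, 22.5% and 24.0% of all genes. With the replicate block 13 members were called with LITAF against H/R (12 rose, and Lmod3 fell), where the samples share only a number: Ttn (log2 0.93, adjusted p = 0.00396) and Myom1 (adjusted p = 0.0371) were then called and Mymk was not. Over all genes the block called 5.04% risen and 2.62% fallen with LITAF against H/R. It called 22 members for H/R against control, where 33.3% of all genes rose and 33% fell. For LITAF against control it called 24 members, where 33.3% of all genes rose and 34% fell. In H/R against control, the block changed no call other than that of Actc1. Same-numbered libraries ran together there in the values, and the labels name no pairs. Near-zero members under 0.5 CPM numbered 7 in control and 8 with LITAF.

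The alternatives that changed a sign follow, as log2 fold changes. With library totals, LITAF against H/R gave Tpm1 -0.016 and Smyd1 -0.011. With both number 4 libraries of control and H/R left out, H/R against control gave Cryab -0.087 and Myh2 -0.19, and LITAF against H/R gave Smyd1 -0.039. With each library left out in turn, LITAF against H/R ran from -0.13 to 0.024 for Cryab (highest without LITAF replicate 1), -0.23 to 0.20 for Myoz2 (above 0 without H/R replicate 1 and LITAF replicates 1 and 2) and -0.092 to 0.30 for Smyd1 (below 0 without H/R replicates 2 and 4 and LITAF replicates 3 and 4). H/R against control then ran from -0.10 to 0.14 for Cryab and -0.020 to 0.19 for Tnnc1 (both lowest without control replicate 4), -0.0050 to 0.18 for Myh1 (lowest without control replicate 2), -0.59 to 0.045 for Tnni2 (above 0 without H/R replicate 4 and control replicate 2) and -0.24 to 2.12 for Myh2 (below 0 without H/R replicate 2 and control replicates 1, 3 and 4). The cause was not tested.

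Over all genes with LITAF against H/R, 425 rose and 131 fell, while DESeq2 gave 627 and 275, the 2 groups alone 776 and 322, and the fit without LITAF replicate 1 692 and 593. The block gave 873 calls in all (887 with the 2 groups alone). Without 1 library, the total was 272, 279, 244 and 365 for H/R replicates 1 to 4 and 407, 322 and 244 for LITAF replicates 2 to 4, against 556. Rises made up 76.4% of these calls with TMM, 61.0% with library totals and 66.5% with upper-quartile scaling. For H/R against control, library totals moved the median of all genes from 0.01 to 0.13 on the log2 scale and upper quartiles to 0.12. Members under 1 CPM are limited by counting error. The zeros shared by same-numbered control and H/R libraries limit each comparison with control, and vector and oxygen cannot be told apart in it.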
